A study of Caenorhabditis elegans with 36 samples.

Results

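The IP to input ratio of L3 larvae was compared with that of L1 larvae, gene by gene. The ratio is the log2 level of an mRNA in an immunoprecipitate (IP) of AIN-2::GFP minus its log2 level in the input, the total RNA of the same lysate. All named genes of the array were taken as members. The array named 16378 genes, and 12061 of them could be tested, because at least 2 lysates of every stage gave both values. The other 4317 named genes were not tested. The study had 36 samples from 18 lysates of synchronized Caenorhabditis elegans, and the comparison used the 16 samples of 4 L1 and 4 L3 lysates. Every animal, at either stage, came from a strain with a single-copy integrated AIN-2::GFP transgene. Larvae hatched without food and were then fed HB101 bacteria at 20 °C for 4 hours (L1) or 30 hours (L3). Whole animals were ground, so a lysate mixes all tissues. The IP used a monoclonal anti-GFP antibody, and the input was taken after the antibody was added and before the beads. Every replicate was cultured and harvested on its own, and numbers are those of the labels: 2, 5, 10 and 11 at L1 and 1, 2, 3 and 5 at L3. No IP of untagged animals was analysed here, so mRNA held on the beads in other ways is part of every ratio.

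AIN-2 is a GW182-family protein. Such proteins bind the Argonaute that carries a microRNA and recruit the deadenylases that shorten the poly(A) tail of the paired mRNA, which is then translated less or degraded. An mRNA held by many silencing complexes is therefore rich in the IP relative to its own abundance, whatever that abundance is. The larval stages of C. elegans are timed by such microRNAs, among them lin-4 and the let-7 family, which act on the mRNAs of heterochronic genes (genes that set which stage-specific division pattern a cell follows). The comparison asks which mRNAs were held more or less by the complex at L3 than at L1.

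Signal over background sets the depth of an array. A spot over 3 times its column's noise was taken as above background. By that measure 60.3% to 70.4% of the spots of an L1 IP and 54.1% to 68.4% of those of an L1 input were above background. At L3 the shares were 31% to 63.5% in the IPs and 51.3% to 66.6% in the inputs. The lowest share belonged to the IP of L3 replicate 1, which stands apart, and results are also given without it. Across genes, replicates of the same stage and fraction correlated at r = 0.704 (lowest, L3 IPs) to 0.959 (highest, L1 inputs), over genes that are not independent of each other. Precision is limited by the number of arrays. The dyes were unequal, with Cy5 on the IP in 2 of 4 L1 lysates and in 1 of 4 L3 lysates, and a dye term was part of the fit.

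Few mRNAs passed the test, and most of those that did had a higher ratio at L3 under the scaling used here. That balance depended on the processing and the lysates. limma called 25 higher and 31 lower on the deposited values, and 25 and 103 without L3 replicate 5. On simulated data, drawn with 1 spread per gene for all stages, the fit recovered 22% of log2 differences of 2. Few calls therefore need not mean few differences. The L3 IPs correlated less with each other (lowest r 0.704) than the L1 IPs did (lowest r 0.873), which the simulation did not copy. The share recovered in the real data is thus not known. Among the 12061 named genes, 11 had a higher ratio at L3 and 6 a lower one, at an adjusted p under 0.05 in limma with Benjamini-Hochberg adjustment over all genes and probes tested. The 17 genes are 0.141% of the named genes tested (0.0912% higher and 0.0497% lower). With the 3671 unnamed probes the count was 20 of 15732 (0.127%), 14 higher (0.089%) and 6 lower (0.0381%). The genes with a higher ratio included the splicing factor gene rsp-8, the protein disulphide isomerase gene pdi-1, the autophagy gene lgg-2 and the molting gene mlt-10. Those with a lower ratio included the cuticle collagen gene col-17 and the chondroitin proteoglycan gene cpg-8.

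Below the threshold the balance ran the other way. At an unadjusted p under 0.05, 357 named genes (2.96%) were higher at L3 and 799 (6.62%) were lower, together 9.58% (9.45% of all genes and probes). Of the 8215 named genes with both values in all 8 lysates, 208 (2.53%) had every L3 ratio above every L1 ratio, and 608 (7.4%) had every L3 ratio below every L1 ratio, beside 2.46% and 7.33% over genes and probes. The median difference over all genes and probes was -0.16 (interquartile range -0.76 to 0.36), and 41.8% of the differences were above 0 (42% among named genes). That median followed both the lysates and the scaling. It was -0.04 without L3 replicate 1, the lysate that stands apart, and -0.245 without L3 replicate 5. It was -0.04 after a loess fit inside each lysate, 0.05 on the deposited values without further scaling and -0.43 after median centring of the columns. Differences are therefore best read against it. The per-lysate median of the ratio lay between -0.00 and 0.16 at L1 and between -0.47 and 0.17 at L3, with replicate 1 the lowest.

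**Figure D1:**
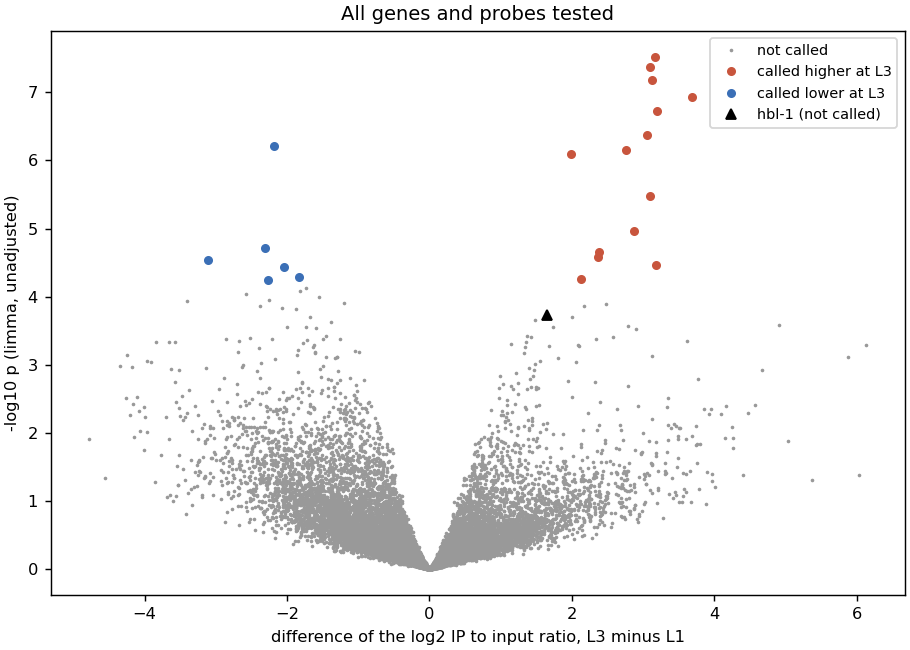
Difference of the log2 IP to input ratio, L3 minus L1 (horizontal axis), against -log10 of the unadjusted limma p (vertical axis) for the 15732 genes and probes tested. The 14 called higher at L3 are red, the 6 called lower are blue, and hbl-1, which was not called, is a black triangle at 1.65; many grey points with larger differences than the called genes had larger errors.

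The calls also followed the scaling and the lysates. With columns centred on their medians limma called 0 genes or probes (210 higher and 1140 lower at an unadjusted p under 0.05). With the values as deposited it called 25 higher and 31 lower, all 17 named genes among them. With loess it called 30 higher and 13 lower, among them 16 of the 17. All 17 kept their sign under each of the 25 alternatives tried. That is little support: the 17 were picked by this fit, their groups do not overlap, and the alternatives reuse the same lysates. The share of all genes that kept their sign was not counted. Without L3 replicate 1, 15 of the 17 were called, and without L3 replicate 5 all 17 were, among 25 higher and 103 lower calls. Among the lysates with Cy3 on the IP alone, limma called 1 gene. The titles spell the input "tot" in 1 L1 and 3 L3 lysates and "Tot" in the others, and what the spelling stands for is not stated. Within "tot" L1 is 1 lysate (replicate 2), and within "Tot" L3 is 1 lysate (replicate 5). Fits within a spelling therefore compare that lysate and not the stage. Their counts of calls are listed at the end with the other alternatives, for completeness only. No conclusion on the stage is drawn from them. Within "Tot" the spread comes from the 3 L1 lysates alone. The median difference over the genes and probes tested was -0.26 within "tot" and 0.09 within "Tot". Leaving out 1 lysate at a time, 9 of the 17 were called each time: rsp-8, Y22D7AL.3, pdi-1, F53A3.1, lgg-2, rei-2, ZK1236.8, mlt-10 and col-17. The other 8 lost the call at least once and are marked as such below. The leave-one-out fits still took their spread from all stages. Of the 17, a fit to the L1 and L3 lysates alone called 5, and a fit with no variance trend called 8.

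rsp-8 encodes an SR protein, a class of splicing factors that bind exonic RNA. Its ratio was -0.33, 0.09, -0.43 and -0.23 in L1 replicates 2, 5, 10 and 11, and 3.10, 4.13, 3.64 and 2.76 in L3 replicates 1, 2, 3 and 5. The same order of replicates is used for every gene that follows. The mRNA was about even between IP and input at L1 and far richer in the IP at L3, with no overlap of the groups. The fitted difference was 3.69 ± 0.45 (standard error, limma adjusted p = 0.000455), a 12.9-fold change of the ratio and the largest among the called genes. It sets 4 L3 against 4 L1 lysates. Here and for every gene that follows, the error and p rest on a spread estimated over all 18 lysates of the study. They do not measure the spread of the 8 L1 and L3 lysates alone. Of the 74 splicing factor genes tested, rsp-8 was the only one called. The median of that list was 0.01.

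pdi-1 encodes a protein disulphide isomerase of the endoplasmic reticulum, where collagens and other secreted proteins fold. Its ratio was -1.41, -1.10, -1.56 and -1.38 at L1 and 1.29, 2.43, 1.57 and 1.29 at L3. All L1 lysates held it below its input level and all L3 lysates above. The difference was 3.17 ± 0.36 (limma adjusted p = 0.000333). The list of endoplasmic reticulum and collagen folding genes had 56 members tested, with a median of -0.13 and pdi-1 as its only call.

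lgg-2 encodes an Atg8 family protein of the LC3 kind, which coats autophagosomes. Its ratio was -0.50, 0.03, -0.36 and 0.09 at L1 and 2.88, 3.41, 2.77 and 2.31 at L3. The L1 lysates lay around 0 and each L3 lysate was over 2. The difference was 3.10 ± 0.36 (limma adjusted p = 0.000333).

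rei-2 encodes a protein that interacts with the small GTPase RAB-11 of recycling endosomes. Its ratio was 0.84, 0.32, 0.55 and 0.59 at L1 and 3.88, 3.67, 4.65 and 2.49 at L3. It was slightly above its input at L1 and well above at L3. The difference was 3.06 ± 0.41 (limma adjusted p = 0.00111).

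mlt-10 is needed for molting, the shedding of the cuticle between larval stages. Its ratio was 0.63, -0.13, 0.15 and 1.04 at L1 and 1.80, 2.91, 1.92 and 2.45 at L3. The highest L1 lysate (replicate 11) was below the lowest L3 lysate (replicate 1). The difference was 1.99 ± 0.28 (limma adjusted p = 0.00141), the smallest among the named genes called higher. The 115 molting and apical matrix genes tested had a median of -0.18. Among them 10 were higher (8.70%) and 9 lower (7.83%) at an unadjusted p under 0.05, beside 2.85% and 6.59% of all genes and probes, and mlt-10 was the only call.

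Y22D7AL.3, F53A3.1 and ZK1236.8 carry no role that is given here, and the annotation lists ZK1236.8 as a pseudogene. The ratio of Y22D7AL.3 was 0.47, -0.07, 0.25 and -0.27 at L1 and 3.36, 3.00, 4.63 and 2.41 at L3, a difference of 3.20 ± 0.41 (limma adjusted p = 0.000595). That of F53A3.1 was 0.62, 0.14, 0.16 and 0.29 at L1 and 3.51, 3.35, 4.37 and 2.68 at L3, a difference of 3.13 ± 0.37 (limma adjusted p = 0.000344). In both genes replicate 3 was the highest and replicate 5 the lowest of the L3 lysates, and no L1 lysate came near either. The ratio of ZK1236.8 was 0.74, 0.83, 0.85 and 0.77 at L1, the tightest group among the called genes, and 3.79, 3.77, 4.32 and 2.44 at L3. Its difference was 2.76 ± 0.39 (limma adjusted p = 0.00139). Over the 11 named genes with a higher ratio, the lowest L3 lysate was replicate 5 in 7 and replicate 1 in 4.

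The other 3 named genes with a higher ratio lost the call when single lysates were left out. clec-265, a C-type lectin gene, had a ratio of -1.51, -2.17, -1.89 and -1.30 at L1 and -0.57, 1.36, 1.41 and 1.67 at L3. Only L3 replicate 1 held it below its input level among the L3 lysates, yet that lysate was still above all L1 lysates. The difference was 2.87 ± 0.48 (limma adjusted p = 0.0157), and the adjusted p was 0.0506 to 0.0879 without L1 replicate 2, 5 or 10 or L3 replicate 2 or 3. Among 123 C-type lectin genes tested (median -0.01) clec-265 was the only call.

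nspc-18, of the nematode-specific peptide family c, had a ratio of -2.08, -2.29, -2.75 and -2.61 at L1 and -1.20, -0.21, 1.44 and -0.45 at L3. It was depleted from every L1 IP and, at L3, was above its input in replicate 3 alone. The difference was 2.39 ± 0.43 (limma adjusted p = 0.0265). Without L1 replicate 2, 5, 10 or 11 or L3 replicate 2 the adjusted p was 0.0636 to 0.134. Members of this peptide family can be alike in sequence, and cross-hybridization between their probes was not tested.

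ZK154.1 had a ratio of -2.32, -1.19, -2.92 and -0.28 at L1 and 0.53, 2.65, 0.86 and 1.51 at L3. It was the most variable of the genes called higher at L1, and its IP spot was above background in 3 of the 4 L1 lysates. The difference was 3.18 ± 0.59 (limma adjusted p = 0.0335). The adjusted p was 0.0537 to 0.296 without L1 replicate 2, 5 or 10 or L3 replicate 2 or 3.

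**Figure D2:**
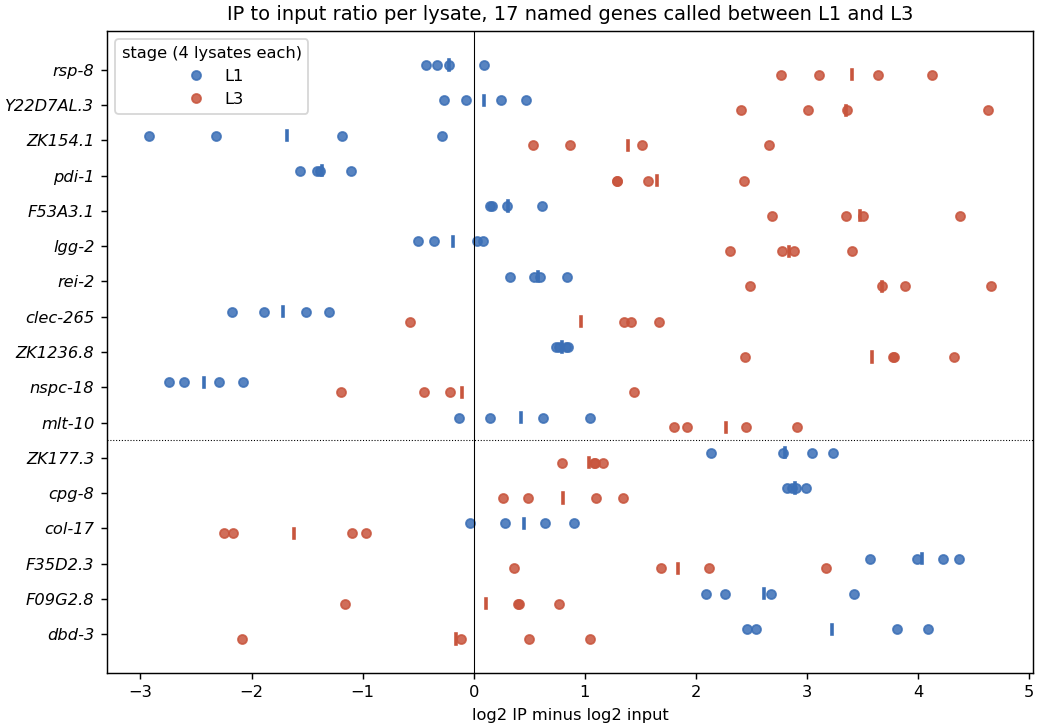
Log2 IP minus log2 input (horizontal axis) of each lysate for the 17 named genes called between L1 (blue) and L3 (red), 4 lysates a stage; vertical ticks mark the mean of a stage and the dotted line parts the 11 genes higher at L3 from the 6 lower. No gene has overlapping groups, and the clec-265 value of -0.57 in L3 replicate 1 lies apart from the other L3 lysates.

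Among the genes with a lower ratio, col-17 was the one called in every leave-one-out fit. A fit to the L1 and L3 lysates alone called 0 genes lower, so col-17 was not called there. col-17 encodes a cuticle collagen. Its ratio was 0.28, 0.91, 0.64 and -0.04 at L1 and -0.97, -2.25, -2.16 and -1.10 at L3. It went from about even between IP and input to depleted from the IP in all 4 L3 lysates. The difference was -2.18 ± 0.30 (limma adjusted p = 0.00139). Of the 122 cuticle collagen genes tested, 9 were higher (7.38%) and 12 lower (9.84%) at an unadjusted p under 0.05, beside 2.85% and 6.59% of all genes and probes, their median was -0.16, as over all genes and probes, and col-17 was the only call.

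cpg-8 encodes a chondroitin proteoglycan, a class of proteins with members in the eggshell. Its ratio was 2.99, 2.82, 2.87 and 2.90 at L1 and 0.26, 0.49, 1.10 and 1.35 at L3. All 8 lysates held it above its input level, and the L1 lysates did so far more. The difference was -2.05 ± 0.39 (limma adjusted p = 0.0336). The call was lost, with an adjusted p of 0.0533 to 0.294, on leaving out any of the 8 lysates other than L3 replicate 5.

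ZK177.3, F35D2.3, F09G2.8 and dbd-3 are given by name only. ZK177.3 had a ratio of 3.23, 2.78, 3.05 and 2.13 at L1 and 1.17, 1.08, 1.09 and 0.79 at L3, a difference of -1.83 ± 0.35 (limma adjusted p = 0.0443). F35D2.3 had a ratio of 3.99, 4.37, 4.23 and 3.56 at L1 and 2.12, 1.69, 0.36 and 3.17 at L3, a difference of -2.26 ± 0.44 (limma adjusted p = 0.0443). Both stayed above their inputs at L3, and L3 replicate 5 of F35D2.3 came close to the L1 group. F09G2.8 had a ratio of 3.42, 2.09, 2.26 and 2.68 at L1 and -1.16, 0.40, 0.41 and 0.77 at L3, a difference of -2.32 ± 0.41 (limma adjusted p = 0.0251). dbd-3 had a ratio of 3.81, 2.54, 2.46 and 4.09 at L1 and -2.08, 0.49, -0.11 and 1.05 at L3, a difference of -3.11 ± 0.57 (limma adjusted p = 0.0299). In both, L3 replicate 1 was the lowest, and the dbd-3 IP spot was above background in 3 of 4 L3 lysates. Each of the 4 lost the call when lysates were left out. ZK177.3 lost it without L1 replicate 2, 5 or 10 or L3 replicate 2 or 3 (adjusted p 0.106 to 0.201), and F09G2.8 without L1 replicate 2, 5 or 10 or L3 replicate 2 (0.0923 to 0.212). F35D2.3 lost it without any lysate other than L3 replicate 5 (0.0502 to 0.256). dbd-3 kept it only without L3 replicate 1 or 5 (adjusted p 0.0533 to 0.226 without the others).

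At L1, 5 of the 6 genes with a lower ratio at L3 were held well above their inputs, with mean ratios of 2.61 to 4.04, and col-17 stood at 0.45. Of the 11 genes with a higher ratio, the L1 mean was above 0 in 5 and reached at most 0.80 (ZK1236.8), and the L3 mean was above 0 in 10. The exception was nspc-18, with an L3 mean of -0.10. The genes were picked on these same ratios, so where their stage means lie is partly built in. The share of all genes with such means was not counted.

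The IP and input levels behind the ratios are given side by side, with no test, since the ratio is made of both. Levels are log2 normalised intensities of one probe set and are not compared between genes. In whole-animal RNA, fewer cells of a type and less RNA per cell cannot be told apart. The genes of both directions were picked on IP minus input, so groups that lie apart in the IP are partly built in. The share of all genes with such groups was not counted for the IP or the input. In the IP, all 11 genes with a higher ratio had every L3 lysate above every L1 lysate. In the input, the groups overlapped in 7 of them, L3 was above L1 in 3 (mlt-10, nspc-18 and ZK154.1) and below in 1 (lgg-2). For rsp-8 the IP level went from 1.95 ± 0.25 (SD, n = 4) at L1 to 5.40 ± 0.49 at L3, and the input level was 2.17 ± 0.37 and 1.99 ± 0.24. The rsp-8 input values of the stages overlapped, so its higher ratio sat in the IP. For mlt-10 both fractions were higher at L3, the IP going from 0.95 ± 0.32 to 4.34 ± 0.42 and the input from 0.53 ± 0.27 to 2.06 ± 0.77. For lgg-2 the IP was higher, from -0.30 ± 0.51 to 1.10 ± 0.28, and the input lower, from -0.11 ± 0.39 to -1.74 ± 0.48. The lgg-2 mRNA was thus scarcer in total RNA at L3 and yet richer in the IP, and the ratio sums both differences.

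Among the 6 genes with a lower ratio, the IP level was lower at L3 without overlap in 4 (ZK177.3, cpg-8, F35D2.3 and F09G2.8), with overlapping inputs in each. cpg-8 is an example: its IP level was 3.33 ± 0.29 (SD, n = 4) at L1 and 1.12 ± 0.45 at L3, and its input level 0.44 ± 0.29 and 0.32 ± 0.30. In the other 2 the input was higher at L3. The col-17 input went from -1.06 ± 0.70 to 5.00 ± 0.59 and its IP level from -0.61 ± 0.58 to 3.38 ± 0.50. More col-17 mRNA was therefore in the IP at L3 than at L1, and its ratio was lower because the input level differed by more than the IP level did. The dbd-3 input went from -3.47 ± 1.34 to -1.03 ± 0.67, with IP levels of -0.25 ± 0.52 and -1.19 ± 1.17 that overlapped.

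**Figure D3:**
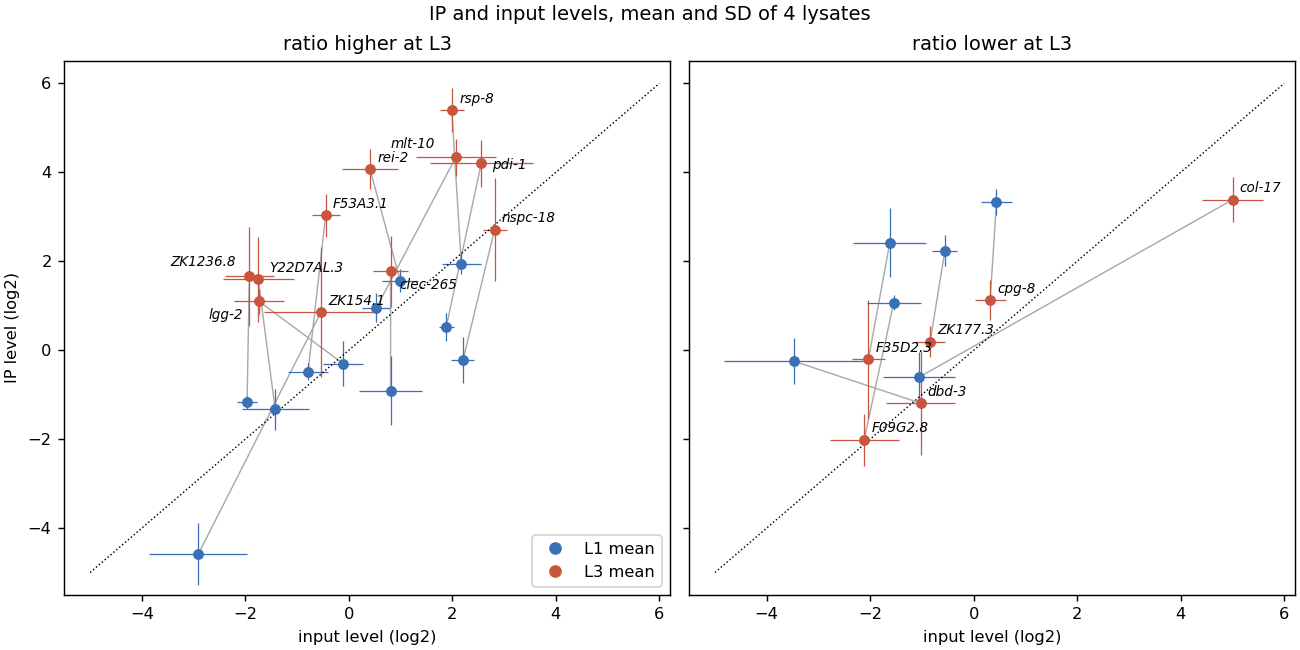
Mean log2 IP level (vertical axis) against mean log2 input level (horizontal axis) at L1 (blue) and L3 (red) for the 11 genes with a higher ratio (left) and the 6 with a lower one (right); bars are SDs of 4 lysates, grey lines join the stages of a gene, names stand at L3 and the dotted line marks equal levels. Most lines at the left run upward with little change of the input, as for rsp-8 (1.95 to 5.40 in the IP), whereas col-17 moved along both axes.

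The ratio at the other stages (Egg with 4 lysates, L2 and L4 with 3 each) is given as a description with no test of those stages. The L2 mean was above the L1 mean in 11 of the 11 genes with a higher ratio and above the L3 mean in 6 of them. Genes picked for a low ratio at L1 tend to lie above L1 at another stage by that choice alone. The share of all genes with L2 above L1 was not counted. For Y22D7AL.3 the L2 mean was 5.22 ± 0.46 (SD, n = 3) and the L4 mean 1.01 ± 0.10. For ZK1236.8 the L2 mean was 5.72 ± 0.29 and the L4 mean 1.89 ± 0.24. F53A3.1 (4.89 ± 0.30 at L2) and rei-2 (4.75 ± 0.21 at L2) had the same shape, near even at L1, highest at L2 and lower again at L4. rsp-8 stood at 3.74 ± 0.21 at L2, close to its L3 mean of 3.41 ± 0.60 (SD, n = 4), and at 1.69 ± 0.74 at L4. In another shape the mean was higher at each later stage from L1 on. lgg-2 had means of -0.19 at L1, then 0.89 ± 0.04 at L2, 2.84 by L3 and finally 2.93 ± 0.43 (L4). ZK154.1 (2.32 ± 0.62) and clec-265 (2.40 ± 0.65) likewise had their highest mean at L4. Among the genes with a lower ratio, the L2 mean was below the L1 mean in all 6, a count with the same limit. The Egg mean of cpg-8 was -0.85 ± 0.59 (SD, n = 4) and that of dbd-3 -0.94 ± 0.61, and their L1 means of 2.89 and 3.23 were the highest of their 5 stages. The L1 mean was also the highest for ZK177.3 (2.80), F35D2.3 (4.04) and F09G2.8 (2.61), whereas col-17 was highest in Egg (0.75). Picking genes with a ratio higher at L1 than at L3 favours a highest mean at L1. The share of all genes with their highest mean at L1 was not counted.

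**Figure D4:**
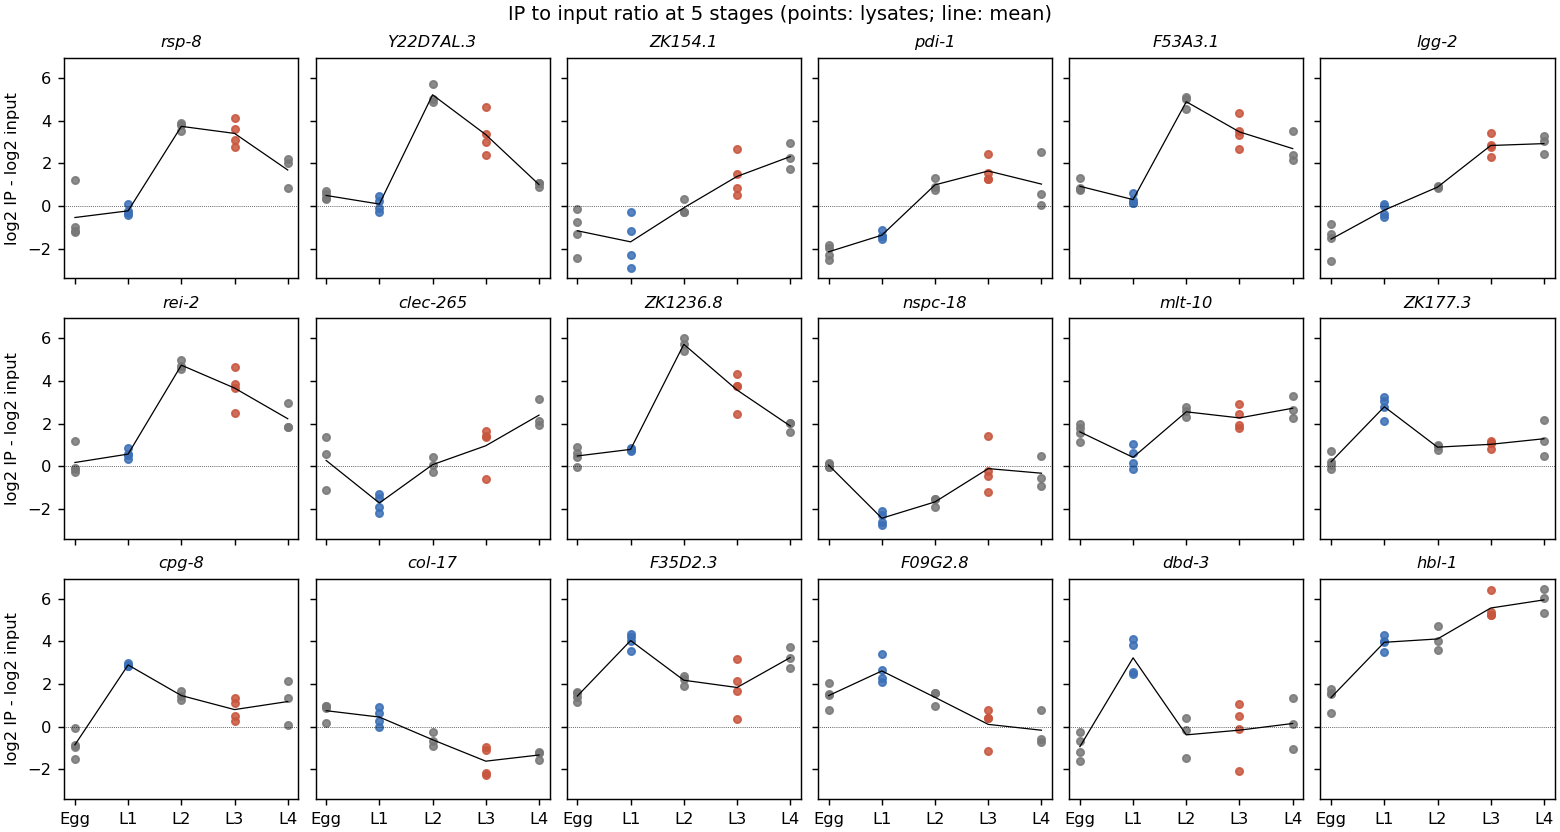
Log2 IP minus log2 input (vertical axis) at Egg, L1, L2, L3 and L4 for the 17 called genes and hbl-1; points are lysates (L1 blue, L3 red, other stages grey) and lines join the stage means. Y22D7AL.3, F53A3.1, rei-2 and ZK1236.8 are highest at L2, and lgg-2 reaches its highest mean, 2.93, at L4. Highest at L1 are dbd-3, cpg-8, ZK177.3, F35D2.3 and F09G2.8, which were picked for a ratio higher at L1 than at L3.

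Of the 15 heterochronic genes tested, limma called 0 (2 higher, 13.3%, and 0 lower at an unadjusted p under 0.05, beside 2.85% and 6.59% of all genes and probes). Their median difference was -0.32 beside -0.16 over all genes and probes, and moved to -0.14 without L3 replicate 1, -0.51 without L3 replicate 3 and -0.48 without L1 replicate 11. Several well-known members, such as lin-28 and lin-14, were not analysed here. hbl-1 came closest. It encodes a transcription factor that keeps early larval fates and is repressed by microRNAs of the let-7 family. Its ratio was 3.50, 3.98, 4.02 and 4.32 at L1 and 5.24, 6.43, 5.37 and 5.22 at L3. It was strongly held in all 8 lysates, and every L3 lysate was above every L1 lysate. The difference was 1.65 ± 0.36 (limma adjusted p = 0.0872). Its IP level was 3.33 ± 0.28 (SD, n = 4) and 4.71 ± 0.57, without overlap, over input levels of -0.63 ± 0.32 and -0.85 ± 0.17, which overlapped. hbl-1 passed the threshold under 3 of the 25 alternatives.

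The second heterochronic gene at an unadjusted p under 0.05 was bed-3, a zinc finger gene that acts in molting and division timing, at 1.07 ± 0.47 (limma adjusted p = 0.483) with overlapping groups. dre-1, an F-box gene of the ubiquitin pathway, was held strongly at both stages, with ratios of 3.47 ± 0.28 (SD, n = 4) and 3.26 ± 0.72. lin-29, the zinc finger gene that ends larval development, was even between IP and input at both stages, with ratios of 0.05 ± 0.57 and 0.16 ± 0.75. myrf-1, a membrane-bound transcription factor gene, differed by 0.23 ± 0.29 and mab-10, a cofactor gene of lin-29, by 0.64 ± 0.70. The period homologue lin-42 differed by -1.37 ± 0.72 (limma adjusted p = 0.585) and the zinc finger gene blmp-1 by -2.15 ± 1.20 (limma adjusted p = 0.615, 3 lysates at L3). sea-2, nhr-25, puf-9, lin-46 and lin-66 had differences of -0.54 to -1.46, with a limma adjusted p of 0.648 or more. The IP spot of lin-46 was above background in 1 of 4 L3 lysates and that of lin-66 in 2 of 4. lep-2 was not above background in any L1 or L3 IP.

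lep-5, a long non-coding RNA of the same pathway, differed by -0.32 ± 0.44 in its ratio (limma adjusted p = 0.88), while both of its levels differed by far more. Its IP level lay between -6.89 and -5.64 in the 4 L1 lysates and was 2.30, 3.66, 2.18 and 1.45 in the L3 lysates. At L1 its IP spot was above background in 0 of 4 lysates and its input spot in 1 of 4, so the L1 ratio is one of background values. The IP level at L3 was at least 201-fold higher, taking the lowest signal above background as the L1 level. Its input level went from -5.70 ± 0.43 (SD, n = 4) to 3.47 ± 0.42.

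Of the 10 known microRNA targets tested, a list that also holds hbl-1 and nhr-25, limma called 0 (1 higher, 10%, and 3 lower, 30%, at an unadjusted p under 0.05, beside 2.85% and 6.59% of all genes and probes), and their median was -0.21 (-0.10 without L3 replicate 2). The per-lysate median of the ratio of these mRNAs was 1.46 to 1.72 at L1 and 0.31 to 1.13 at L3, beside -0.00 to 0.16 and -0.47 to 0.17 over all genes and probes. The mean ratio was above 0 at both stages in 8 of the 10, cog-1 and vav-1 being the exceptions. egl-1, the BH3-only gene that starts programmed cell death, had a ratio of 1.94, 2.39, 2.21 and 1.68 at L1 and 0.71, -0.13, 0.34 and 0.86 at L3. The groups did not overlap, with a difference of -1.68 ± 0.51 (limma adjusted p = 0.294). die-1, a zinc finger gene, had 3.15, 1.99, 1.91 and 2.55 at L1 and 1.13, 1.10, 0.01 and 1.57 at L3, a difference of -1.26 ± 0.39 (limma adjusted p = 0.294). unc-29, an acetylcholine receptor subunit gene of muscle, differed by -1.32 ± 0.61 (limma adjusted p = 0.509), also without overlap, and its IP spot was above background in 2 of 4 L3 lysates.

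The remaining targets showed small or poorly measured differences. The muscle transcription factor gene mef-2 had ratios of 1.53 ± 0.29 (SD, n = 4) and 1.54 ± 0.18, a difference of 0.04 ± 0.32. Both its IP level (3.19 to 2.32) and its input level (1.65 to 0.78) were lower at L3 without overlap, by nearly the same amount. The Ras gene let-60 differed by 0.12 ± 0.29, the foregut factor gene pha-4 by -0.24 ± 0.35 and vav-1 by -0.17 ± 0.78 (3 lysates at L3). cog-1, a homeobox gene, had both values in 2 of the 4 L3 lysates and an input spot not above background in any of them. Its difference of 2.73 ± 1.91 therefore rests on values near background.

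The list named microRNA machinery was chosen from gene class names and textbook roles, and a member need not act in that pathway alone. It had the lowest median of the 47 lists, -0.49 over 28 genes, against -0.16 over all genes and probes. Without L3 replicate 1 it was -0.24, above that of the potassium channels (-0.32), beside -0.04 over all. limma called 0 of them (0 higher and 5 lower at an unadjusted p under 0.05, or 17.9% beside 6.59% of all genes and probes). The 5 were pup-2, drsh-1, panl-3, ifet-1 and car-1. pup-2, a poly(U) polymerase gene, had a ratio of 2.50, 1.80, 2.06 and 2.02 at L1 and 0.95, 0.40, 0.45 and 1.12 at L3. The groups were well apart, with a difference of -1.29 ± 0.32 (limma adjusted p = 0.143, and 0.0522 or more under every alternative). drsh-1 encodes Drosha, which cuts primary microRNA transcripts, and had 3.02, 2.40, 2.63 and 3.14 at L1 and 0.16, 2.22, 0.90 and 2.19 at L3. Its groups did not overlap, although L3 replicates 2 and 5 came close to the L1 lysates, and its difference was -1.26 ± 0.40 (limma adjusted p = 0.3). panl-3, a subunit gene of the PAN deadenylase, differed by -1.73 ± 0.58 (limma adjusted p = 0.344) with its lowest value, -1.74, in L3 replicate 1. The panl-3 IP spot was above background in 3 of 4 L3 lysates. ifet-1, the eIF4E transporter homologue, differed by -0.92 ± 0.43, and car-1, an Lsm family gene of RNA granules, by -0.67 ± 0.32.

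Genes at the core of the complex did not pass the test. ain-1, the other GW182-family gene, had ratios of 1.18, 2.06, 1.96 and 0.97 at L1 and 1.24, 1.28, 1.49 and 1.57 at L3, with overlap and a difference of -0.27 ± 0.26. It was held above its input level in all 8 lysates. The microRNA Argonaute gene alg-1 had 3.40, 1.78, 2.08 and 2.90 at L1 and -2.18, 1.92, 0.14 and 1.88 at L3, a difference of -1.77 ± 1.01 (limma adjusted p = 0.628). Its low L3 values came from replicates 1 and 3, and its IP spot was above background in 3 of 4 L3 lysates. The paralogue alg-2 differed by -0.27 ± 0.30 and alg-5 by -0.46 ± 0.71. alg-1 and alg-2 are close paralogues, and cross-hybridization between their probes was not tested. The Dicer gene dcr-1 differed by -0.42 ± 1.02 and the Drosha partner gene pash-1 by -0.65 ± 0.93. Their IP spots were above background in 2 and 3 of 4 L3 lysates. Of the decay factors, the CCR4-NOT subunit genes let-711 and ccf-1 differed by -0.78 ± 0.87 and 0.20 ± 0.48, the decapping cofactor gene dcap-1 by 0.09 ± 0.28 and the helicase gene cgh-1 by -0.23 ± 0.28. The highest differences of the list were 0.68 ± 0.65 for dhps-1 and 0.54 ± 0.38 for lsm-3. The other 11 genes (rack-1, patr-1, dcs-1, xrn-2, xpo-3, xrn-1, pab-1, cid-1, lsm-1, edc-3 and panl-2) lay between -0.98 and 0.46. The IP spot was above background in 1 of 4 L3 lysates for dcs-1 and in 2 of 4 for xrn-2, xrn-1 and panl-2. In dhps-1 and lsm-3 every measured L3 lysate was above every L1 lysate, and in lsm-1 (-0.72 ± 0.42, limma adjusted p = 0.633) every L3 lysate was below. The ain-2 mRNA was not analysed here.

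Across the 47 gene lists, 7 held a call, of 1 gene each, and 40 held none. The genes called in lists were col-17, mlt-10, clec-265, pdi-1, rsp-8 and cpg-8, the last in 2 lists, and the other 11 called genes belonged to no list. A total of 26 lists had a median above that of all genes and probes. The cytosolic ribosomal proteins, the structural proteins of the ribosome, had the highest median, 0.70 over 73 genes. limma called 0 of them (16 higher, 21.9%, and 1 lower, 1.37%, at an unadjusted p under 0.05, beside 2.85% and 6.59% of all genes and probes). Of the 73, 68 had a difference above 0 (93.2%, against 41.8% of all). Of the 70 with all 8 lysates, 0 had groups that did not overlap. Over all genes and probes, 2.46% had every L3 ratio above every L1 ratio and 7.33% had every one below. The per-lysate medians were -1.63, -3.90, -3.92 and -2.75 at L1 and -1.79, -2.63, -2.49 and -3.16 at L3. Their median was thus below 0 in every lysate, the spread of the medians between L1 lysates was wider than the shift between stages, and 71 of the 73 had a mean ratio below 0 at both stages. The L1 medians went with the dye: -1.63 and -2.75 with Cy5 on the IP, -3.90 and -3.92 with Cy3. With Cy3 on the IP, the L3 medians (-1.79, -2.49 and -3.16) lay above both of L1. With Cy5 the L3 median, -2.63, lay between those of L1. The fit to Cy3 lysates alone gave a median difference of 1.51. The cause was not tested. The median difference also hung on single lysates: it was 0.40 without L3 replicate 1, 1.06 without L1 replicate 2 and 1.05 without L3 replicate 2. The sign of their median turned, to -0.50, when the fit used only the lysates whose input title is spelled "tot", where L1 is replicate 2 alone.

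Oxidative phosphorylation genes, which encode the respiratory chain, had a median of 0.17 over 65 genes, with 9 higher (13.8%) and 2 lower (3.08%) at an unadjusted p under 0.05, beside 2.85% and 6.59% of all genes and probes, and 0 called by limma. That median was 0.11 without L3 replicate 5. At the low end, after the microRNA machinery, stood other Argonautes and small RNA genes (median -0.44, 41 genes), potassium channels (-0.41, 47 genes), cell cycle and DNA replication genes (-0.41, 108 genes) and vesicle trafficking genes (-0.38, 143 genes). Without L3 replicate 1 these 4 medians were -0.02, -0.32, -0.25 and -0.20, and without L3 replicate 5 that of the cell cycle genes was -0.63. The counts that follow are at an unadjusted p under 0.05 and stand beside 2.85% and 6.59% of all genes and probes. Of the cell cycle genes 3 were higher (2.78%) and 13 lower (12.04%), and of the germ line and oocyte genes (median -0.34, 100 genes) 4 (4%) and 15 (15%), with cpg-8 as the only call. Proteasome subunits had 0 higher and 6 lower (18.8%) of 32 (median -0.29, and -0.19 without L1 replicate 10), and fatty acid metabolism genes 3 (2.56%) and 13 (11.1%) of 117 (median -0.29, and -0.44 without L1 replicate 10). The tissue lists had medians of -0.02 for epidermal, -0.12 for intestinal, -0.14 for muscle and -0.18 for neuronal genes, and 0 calls by limma among their 55, 106, 55 and 84 members (4 higher and 6 lower, 4 and 8, 1 and 5, and 1 and 7, counted the same way).

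**Figure D5:**
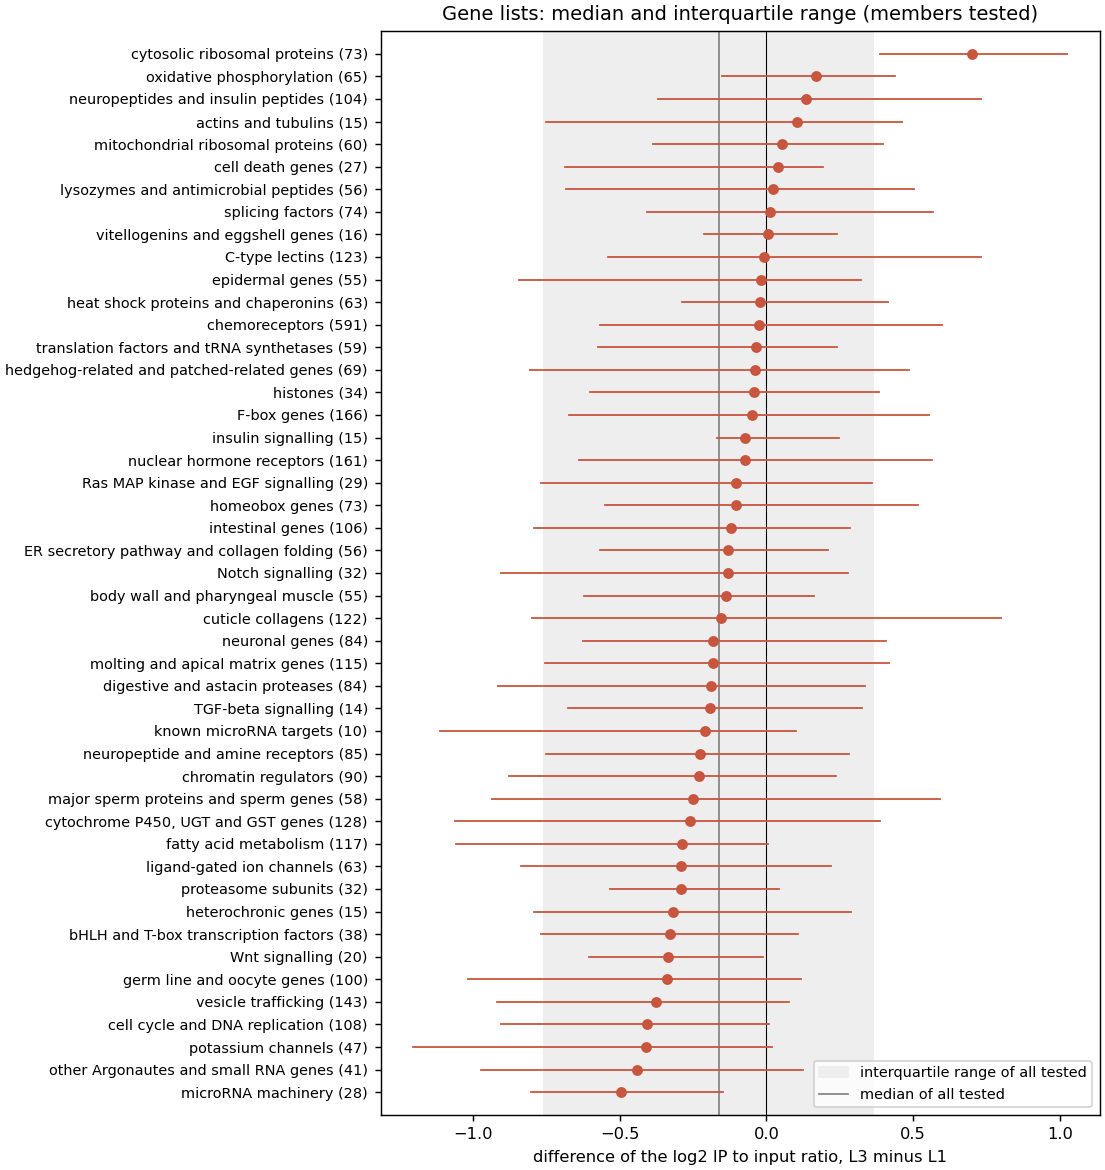
Median (point) and interquartile range (line) of the fitted L3 minus L1 difference of the log2 IP to input ratio (horizontal axis) for the tested members of 47 gene lists, with the number of members in brackets; the grey band and line are the interquartile range and the median (-0.16) of all genes and probes tested. The cytosolic ribosomal proteins stand at 0.70 at the top and the microRNA machinery at -0.49 at the bottom, and most lists overlap the band widely.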

How the data were processed

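mRNA was measured in 36 samples, each 1 dye channel of a spotted oligonucleotide array. The authors deposited intensities per spot on a linear scale, background-subtracted (values below 0 occur) and with column means near 1, as tested on the file; RNA was amplified once before labelling, per the labels' protocols. The scanner, software, scaling and probe build are not given in the sources used here, so no coordinates or sequences are printed.

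Non-positive values, which made up 8.95% to 20.26% of an L1 or L3 column, were set to missing, and log2 values were quantile normalized over the 36 columns, which makes every ratio relative to all other mRNAs. Of 23232 spots, 17461 carried a symbol in the platform table and 17371 matched RefSeq by Entrez ID, with 0 symbols changed; 880 genes had 2 or more spots, which were averaged. Ratios were fitted with limma 3.58.1 (R 4.3.3) over all 18 lysates with stage, dye and a variance trend (12 residual and 7.46 prior degrees of freedom). Errors after ± are standard errors of the fit unless SD is written. IP and input are of the same lysate, per the labels' protocols, and their deviations from stage means correlated across genes (r from 0.258 to 0.621); the ratios of L1 and L3 lysates of the same number did not (0.079 and 0.008), so numbers do not pair stages.

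On simulated data (15732 genes, 50 changed per size) the fit recovered 4%, 22%, 52% and 48% of log2 differences of 1, 2, 3 and 4, with 4 false calls of 15532. The simulated noise had the same spread at every stage of a gene and was independent between genes. Named are called genes measured in all 8 lysates without overlap (up to 12 in each direction), every tested member of the heterochronic, known target and microRNA machinery lists, and up to 3 called genes in each direction of any other list. The members and lists were chosen with earlier results of these data known. Alternatives were the scaling, an offset of 0.1, the dye, title spelling, blocks, filters, probes and each lysate left out. Figures were drawn with Python 3.11.15, numpy 2.4.6, pandas 2.3.3 and matplotlib 3.10.9.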

Additional observations from a re-analysis of the deposited data

Results flagged for a closer look

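The IP to input ratio of 17 named genes differed between L1 and L3 by the limma test of the difference. The differences were 3.69 (rsp-8), 3.20 (Y22D7AL.3), 3.18 (ZK154.1), 3.17 (pdi-1), 3.13 (F53A3.1), 3.10 (lgg-2), 3.06 (rei-2), 2.87 (clec-265), 2.76 (ZK1236.8), 2.39 (nspc-18) and 1.99 (mlt-10) for the genes higher at L3. They were -1.83 (ZK177.3), -2.05 (cpg-8), -2.18 (col-17), -2.26 (F35D2.3), -2.32 (F09G2.8) and -3.11 (dbd-3) for the genes lower at L3.

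Single samples lay far from the other 3 of their group in 6 of 108 groups examined, and chance gives about 1 in 20. The clec-265 ratio was -0.57 in L3 replicate 1 and 1.36 to 1.67 in the others, and that lysate's IP had the lowest share of spots above background (31%). The hbl-1 ratio was 6.43 in L3 replicate 2 and 5.22 to 5.37 in the others. The F53A3.1 input level was -1.37 in L1 replicate 2 (others -0.65 to -0.51) and -0.86 in L3 replicate 3 (others -0.34 to -0.29). The rei-2 IP level was 1.19 in L1 replicate 11 (others 1.66 to 1.72). The ZK177.3 input level was -0.41 in L3 replicate 2 (others -1.04 to -0.94).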

How the results depend on the processing

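Against 14 genes and probes called higher and 6 lower, limma called 25 and 31 with the values as deposited, 30 and 13 with loess within each lysate, 45 and 46 with an offset of 0.1, and 0 and 0 with columns centred on their medians (lowest adjusted p 0.133). Without the dye term it called 14 and 13, and with Cy3 on the IP alone 1 and 0. A fit to the L1 and L3 lysates alone gave 5 and 0, with no replicate block (IP and input unpaired) 7 and 0, and with a replicate block by number across stages 5 and 1, with 4 of the 17 named genes. Title spelling as a term gave 10 and 2, "tot" lysates alone 0 and 0 (lowest adjusted p 0.103) and "Tot" lysates alone 20 and 18, each with 1 stage as a lone lysate (L1 and L3) assumed to vary like the other groups. Filters gave 14 and 11 with both values in all 8 lysates, 14 and 4 with no demand on the other stages, and 15 and 12 without dim genes. No variance trend gave 7 and 1, and the brightest probe of a gene 14 and 6. The share of calls that were higher was 70% against 44.6% as deposited and 49.5% with the offset. Leaving out 1 lysate gave 8 to 25 higher and 1 to 103 lower calls, and kept 9 to 17 of the 17 named genes. The causes of these differences were not tested. All 17 named genes kept their sign under all 25 alternatives, which reuse the lysates that these genes were picked on. The 17 genes lost the call in 157 of these values, and hbl-1 gained it in 3. Of all gene and list values, 2492 moved by less than their error or kept their side of the threshold, and 198 moved further. Dim spots limit the ratio: 29 of 51 members of the 3 microRNA lists were above background in all 16 samples.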
